A study of Mus musculus with 22 samples.

Results

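IOX1 was compared with NC in 4 libraries of the E14 mouse embryonic stem cell line, 2 with each treatment label, out of 22 libraries in 11 groups. Members were taken by their treatment label and every gene in the table was then described. NC is the sole group whose label names no compound, and the other 9 groups carry the names of other compounds (Bromosporine, Chaetocin, CPTH2, DZNep, Garcinol, MS023, OICR, UNC0379 and Valproate). All groups share the cell line and the poly(A) RNA-seq protocol, and the labels give no dose, time, solvent or passage for any of them. Nothing in the labels says that the 2 libraries of a group came from separate cultures. The p-values below thus measure the spread between libraries within groups, taken over all 11 groups, which may be technical.

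IOX1 is a hydroxyquinoline that binds the iron in the active site of 2-oxoglutarate oxygenases and inhibits them broadly. These enzymes use iron, oxygen and 2-oxoglutarate to hydroxylate proteins, nucleic acids and small molecules. They include the JmjC histone demethylases, the TET enzymes that oxidise methylated cytosine, and the EGLN prolyl hydroxylases that mark the hypoxia factor HIF for degradation. Cells sense electrophiles and oxidants through KEAP1, which otherwise keeps the transcription factor NRF2 low. NRF2 switches on genes for quinone reduction, glutathione and thioredoxin through the antioxidant response element in DNA.

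The values are normalised read counts, forced by the authors to the same distribution in every library and rounded, so the median was 409 and the largest value 221616 in all 22 libraries. The depth of each library is therefore unknown, no counting interval can be given, and a change is a change in a gene's place relative to the other genes of its library. Of 18487 genes, 17275 reached a value of 10 in at least 2 libraries and were tested. Changes are given as log2(value + 1) in IOX1 minus NC with the standard error (SE). Calls needed both a change over 2-fold and a limma p-value that stayed below 0.05 after Benjamini-Hochberg adjustment. The embryonic stem cell markers Pou5f1, Sox2, Nanog, Zfp42, Esrrb and Dppa5a summed to 174523 and 186548 in the NC libraries and to 213995 and 207499 in the IOX1 libraries. Without Dppa5a the sums were 132620 and 147286 in NC and 137896 and 147996 in IOX1. The 8 of 13 fibroblast markers that were tested summed to 741 and 781 in NC and to 411 and 142 in IOX1, with Lum at 0 in all 4 libraries. Without Postn these sums were 267 and 222 in NC and 91 and 142 in IOX1. The 27 of 31 markers of differentiated lineages that were tested summed to 9670 and 13619 in NC and to 10901 and 14852 in IOX1. In bulk RNA, fewer cells of a type and less RNA per cell cannot be told apart. Across genes, the log2 values of the NC libraries correlated at 0.944 and those of the IOX1 libraries at 0.923 (Pearson's r over 17275 genes, which are not independent replicates).

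IOX1 and NC differed in 20 genes in the fit without a term for replicate number. Of these, 6 rose, which is 0.0347% of the genes tested, and 14 fell, which is 0.0810%. The rises were led by enzymes that reduce quinones and carbonyls: Nqo1, Cbr3 and Ptgr1 were 4.44-fold, 3.54-fold and 3.15-fold higher with IOX1. The falls included a cation channel, a chemokine-like receptor, a mitochondrial dehydrogenase and a ribosomal protein pseudogene. All 20 genes moved the same way in replicate 1 and in replicate 2, and in none of them did an IOX1 value overlap an NC value. The calls were made on these same values, so this adds no separate support. Of all tested genes, 31.5% were higher and 35.7% lower by any amount in both replicate numbers. The share of all genes without overlap was not counted. The median change over all tested genes was -0.02.

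**Figure D1:**
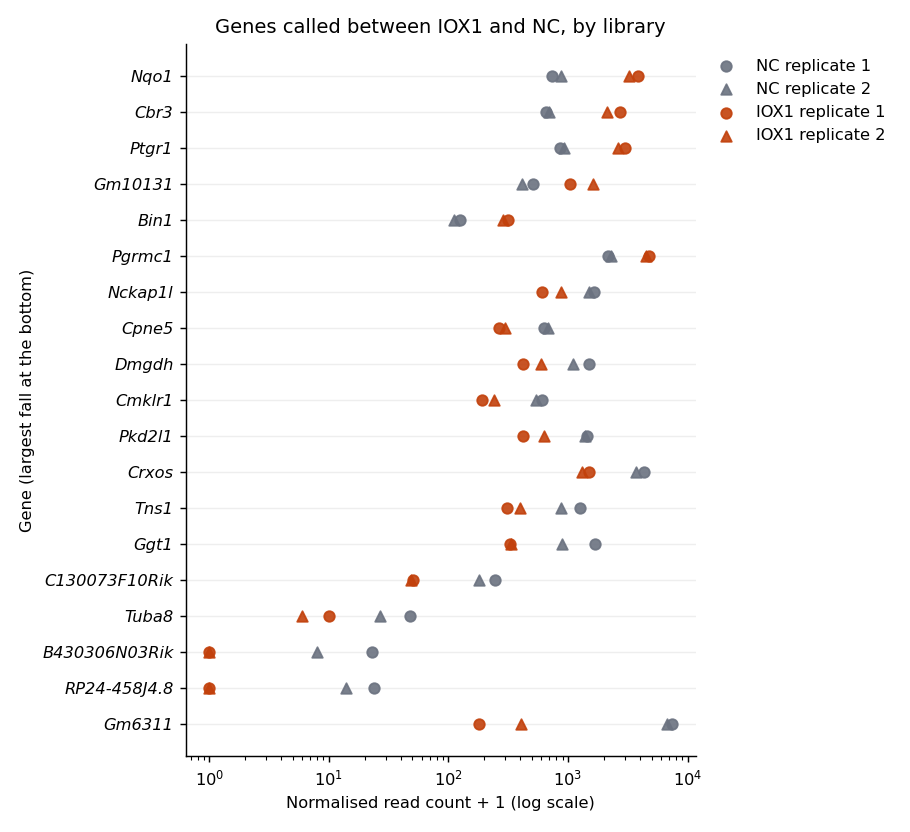
Normalised read count + 1 on a log axis for 19 of the 20 called genes, 1 point for each of the 2 NC (grey) and 2 IOX1 (orange) libraries, circles for replicate 1 and triangles for replicate 2. The 6 rises stand at the top and 13 of the 14 falls below them, and the IOX1 and NC points of a gene do not cross in any row. The genes were chosen by a test on these same values.

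Promoter sequences are shown for 4 of the called rises, Nqo1, Cbr3, Ptgr1 and Pgrmc1, to show whether they hold the NRF2 motif, and for Gclm and, at 1 of its start sites, Txnrd1, a pair of NRF2 targets that carry it. Each run is read 5′ to 3′ on the strand of the gene, from GRCm38.p6, and stops before the first RefSeq or GENCODE start site in the window. Capitals mark TGACNNNGC, the core of the antioxidant response element, on either strand.
Nqo1, chr8:107403207-107403455, reverse strand: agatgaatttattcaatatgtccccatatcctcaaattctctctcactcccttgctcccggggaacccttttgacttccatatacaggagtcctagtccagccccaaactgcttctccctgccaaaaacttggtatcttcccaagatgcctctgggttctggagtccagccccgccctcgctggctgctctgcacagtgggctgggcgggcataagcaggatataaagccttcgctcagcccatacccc
Cbr3, chr16:93682969-93683214, forward strand: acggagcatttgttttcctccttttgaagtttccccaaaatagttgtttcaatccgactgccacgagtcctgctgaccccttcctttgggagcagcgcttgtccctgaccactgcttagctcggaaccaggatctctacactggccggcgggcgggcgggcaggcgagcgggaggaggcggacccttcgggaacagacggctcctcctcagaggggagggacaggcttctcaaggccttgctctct
Ptgr1, chr4:58987120-58987328, reverse strand: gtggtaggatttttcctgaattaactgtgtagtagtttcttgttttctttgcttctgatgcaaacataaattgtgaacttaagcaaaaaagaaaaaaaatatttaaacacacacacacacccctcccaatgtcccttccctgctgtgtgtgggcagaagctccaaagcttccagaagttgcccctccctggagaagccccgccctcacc
Pgrmc1, chrX:36597943-36598192, forward strand: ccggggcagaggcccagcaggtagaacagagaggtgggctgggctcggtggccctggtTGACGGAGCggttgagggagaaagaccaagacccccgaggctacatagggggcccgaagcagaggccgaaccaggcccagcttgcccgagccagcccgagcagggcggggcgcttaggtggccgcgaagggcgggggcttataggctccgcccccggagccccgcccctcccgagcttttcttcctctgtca
Gclm, chr3:122245307-122245556, forward strand: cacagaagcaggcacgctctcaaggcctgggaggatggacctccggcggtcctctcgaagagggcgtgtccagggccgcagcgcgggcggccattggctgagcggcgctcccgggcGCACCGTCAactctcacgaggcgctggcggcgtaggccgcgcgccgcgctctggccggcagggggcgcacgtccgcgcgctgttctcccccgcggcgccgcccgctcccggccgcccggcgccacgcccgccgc
Txnrd1, chr10:82858956-82859178, forward strand: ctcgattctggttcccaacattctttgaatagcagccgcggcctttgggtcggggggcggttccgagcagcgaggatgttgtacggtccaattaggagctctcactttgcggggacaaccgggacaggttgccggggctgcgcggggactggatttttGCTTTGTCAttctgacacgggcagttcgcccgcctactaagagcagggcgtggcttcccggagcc
The core was absent from the windows of Nqo1, Cbr3 and Ptgr1, and this says only that these letters are not there. Pgrmc1 held it 183 bases before the end of the printed run, Gclm 125 bases and Txnrd1 56 bases. Over RefSeq's mouse promoters of 300 bases (250 before and 50 after the start), 12.4% of 32851 windows and 14.0% of 27025 genes held the core. In the list of NRF2 targets 10 of the 28 genes with a window held it, or 35.7%. Of the 13 called genes with a window 4 did, Pgrmc1 among the rises and Cmklr1, Crxos and Ggt1 among the falls.

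Nqo1 encodes the NAD(P)H quinone reductase, a standard readout of NRF2 and also of the aryl hydrocarbon receptor. Its normalised read counts were 728 and 872 in NC and 3870 and 3240 with IOX1, a log2 change of 2.15 (SE 0.24, limma adjusted p = 0.0034). In the 18 libraries of the other compounds Nqo1 ran from 550 to 2534 with a median of 1070, so both IOX1 libraries stood above all 20 other libraries. The nearest group was MS023, at 2534 and 2357. Nqo1 lies on chr8:107388225-107403206 on the reverse strand (mm10, as all gene positions here, from GENCODE).

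Cbr3, on chr16:93683215-93690990, encodes a carbonyl reductase that reduces ketones and quinones with NADPH. It stood at 659 and 695 in NC against 2742 and 2101 with IOX1, a log2 change of 1.82 (SE 0.18, limma adjusted p = 0.00123). The DZNep libraries, at 3095 and 3189, lay higher than the IOX1 libraries, and MS023 followed at 1918 and 1478. Its neighbour Cbr1, the close relative with which it shares 2.54% of its 31-base words, stood at 699 and 768 in NC against 921 and 823 with IOX1 (log2 change 0.25, limma adjusted p = 0.362).

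Ptgr1, on chr4:58965439-58987119, encodes prostaglandin reductase, which also saturates the double bond of reactive aldehydes. It had the smallest p-value of all genes: 855 and 918 in NC against 2991 and 2608 with IOX1, a log2 change of 1.66 (SE 0.15, limma adjusted p = 0.000891). Ptgr1 was at 3870 and 3644 with MS023 and at 2969 and 2467 with DZNep, so its level with IOX1 was not particular to that compound. Pgrmc1, a haem-binding membrane protein that serves cytochrome P450 enzymes, lies on chrX:36598206-36606079. Its counts were 2147 and 2285 in NC and 4776 and 4513 with IOX1, a log2 change of 1.07 (SE 0.13, limma adjusted p = 0.00523), and no other library exceeded 3979.

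**Figure D2:**
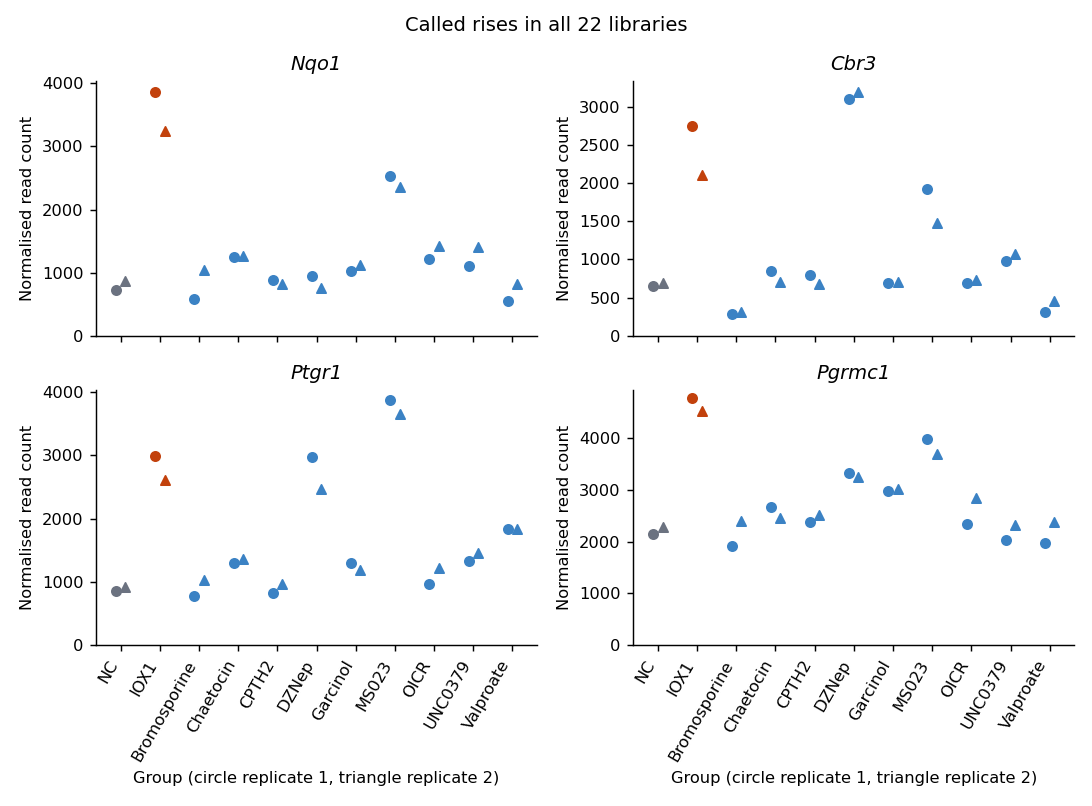
Normalised read counts of Nqo1, Cbr3, Ptgr1 and Pgrmc1 in all 22 libraries by group, circles for replicate 1 and triangles for replicate 2, with each axis starting at 0. IOX1 (orange) stands above every other library for Nqo1 and Pgrmc1, while DZNep reaches 3189 for Cbr3 and MS023 reaches 3870 for Ptgr1.

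The other called rises were Bin1 and Gm10131. Bin1, which encodes a membrane-bending amphiphysin, stood at 125 and 111 in NC against 312 and 287 with IOX1 (log2 change 1.34, limma adjusted p = 0.0116), and it was higher still with DZNep, at 639 and 565. Gm10131 stood at 510 and 414 in NC against 1032 and 1619 with IOX1 (log2 change 1.49, limma adjusted p = 0.0288). It is a copy of Erh and shares 95.5% of its 31-base words with other transcripts, so reads of Erh itself could have been assigned to it. Erh was at 5780 and 8553 in NC against 8553 and 10046 with IOX1, so the copy's call is uncertain.

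Among the falls, Gm6311 had the largest change, from 7457 and 6781 in NC to 178 and 407 with IOX1 (log2 change -4.72, SE 0.77, limma adjusted p = 0.0313). The lowest of the other 18 libraries held 1431, so IOX1 stood below all 20. Gm6311 is a processed pseudogene on chr13:75954136-75955013 and shares 88.4% of its 31-base words with other transcripts, most with Rps2-ps10. Reads over the shared words cannot be told apart from those of the Rps2 family. Rps2-ps10 stood at 28591 and 25647 in NC against 27722 and 26665 with IOX1. Rps2, the ribosomal protein gene itself, was at 221616 in both NC libraries and at 123486 in both IOX1 libraries (log2 change -0.84, limma adjusted p = 0.426), values among the highest of the shared distribution. Since 221616 is the forced largest value of every library, this is a move in rank at the top. The size of the change is set by that distribution.

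Pkd2l1, on chr19:44147637-44192442, encodes a polycystin-family cation channel. It stood at 1448 and 1395 in NC against 423 and 633 with IOX1, below all 20 other libraries (log2 change -1.46, SE 0.19, limma adjusted p = 0.00642). Cmklr1, the chemerin receptor on chr5:113612354-113650426, went from 603 and 542 to 190 and 240 (log2 change -1.42, limma adjusted p = 0.0099), and DZNep was lower, at 143 and 161. Tns1, which encodes the focal adhesion protein tensin, went from 1251 and 880 to 309 and 399 (log2 change -1.58, limma adjusted p = 0.00926). Chaetocin gave a similar Tns1 level, at 338 and 384.

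Crxos, a homeobox gene of the early embryo and of embryonic stem cells, was at 4301 and 3704 in NC against 1486 and 1312 with IOX1 (log2 change -1.51, limma adjusted p = 0.0336). It was lower still with Bromosporine, at 1078 and 805.

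Ggt1, the membrane enzyme that cleaves extracellular glutathione, was at 1695 and 891 in NC against 325 and 333 with IOX1 (log2 change -1.90, limma adjusted p = 0.0272). Dmgdh, the mitochondrial dimethylglycine dehydrogenase, was at 1486 and 1100 in NC against 423 and 588 with IOX1 (log2 change -1.36, limma adjusted p = 0.0238). Nckap1l, a subunit of the actin-regulating WAVE complex in blood cells, went from 1657 and 1486 to 603 and 881 (log2 change -1.11, limma adjusted p = 0.0272). Cpne5, a calcium-dependent membrane-binding copine, went from 632 and 676 to 263 and 294 (log2 change -1.23, limma adjusted p = 0.0196). Bromosporine gave lower levels of Ggt1 (142 and 164), Dmgdh (319 and 257) and Cpne5 (252 and 271), and a similar level of Nckap1l (799 and 846). These levels were therefore not particular to IOX1. For Ggt1, NC replicate 1 also lay above every library of the other compounds, of which the highest held 1095. Among falls given below, this was also so for Cdx1 (1773 against 1460), P4ha1 (2523 against 2177), Loxl2 (103 against 70) and Egln3 (670 against 616). Sox1 (742 against 577), Kdm6b (5477 against 5361) and Srebf2 (19820 against 19230) had it too. Others did not, such as Pfkl (5866 against 8602) and Sohlh2 (3033 against 3573).

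A further 4 falls were genes at low levels or without an assigned role. C130073F10Rik went from 243 and 178 to 50 and 48 (log2 change -2.06, limma adjusted p = 0.0243), and the alpha-tubulin gene Tuba8 from 47 and 26 to 9 and 5 (log2 change -2.22, limma adjusted p = 0.0336). Bromosporine gave Tuba8 levels of 5 and 4. B430306N03Rik, at 22 and 7 in NC, and RP24-458J4.8, at 23 and 13, were listed at 0 in both IOX1 libraries, and no fold is given for them. Cpne5, Dmgdh and Tuba8 overlap exons of genes on the opposite strand, and the strand setting of the counting is not given in the sources used here.

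The calls rested on the spread shared by all 11 groups. A term for replicate number raised the count to 217, all 20 included. With the IOX1 and NC libraries fitted alone, 42 genes passed and none of the 20 was among them. Without IOX1 replicate 1, 16 of the 20 lost their call, and without IOX1 replicate 2, NC replicate 1 or NC replicate 2 the losses were 8, 14 and 9. Nqo1, Cbr3 and Ptgr1 kept their calls in each of these 4 fits.

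Phyh and Uqcr10 passed the adjusted p but not the 2-fold limit, named here after their values were seen. Phyh, the 2-oxoglutarate oxygenase that hydroxylates phytanoyl-CoA in peroxisomes, was at 1458 and 1519 in NC against 929 and 849 with IOX1 (log2 change -0.74, SE 0.09, limma adjusted p = 0.00535). Uqcr10, a small subunit of respiratory complex III, was at 3428 and 4069 in NC against 6268 and 6813 with IOX1 (log2 change 0.81, limma adjusted p = 0.0336).

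To see how repeatable the response was gene by gene, IOX1 was set against NC within replicate number 1 and again within replicate number 2. This is a description, since each number holds 1 library a group. Within number 1, 967 genes were higher and 1104 lower by over 2-fold, and within number 2, 594 and 564. The same direction held in both numbers for 361 genes, 173 higher (1.00% of those tested) and 188 lower (1.09%), while 155 genes passed 2-fold in opposite directions. The 173 shared rises were 17.9% of the rises in number 1 and 29.1% of those in number 2, and the 188 shared falls were 17.0% and 33.3% of the falls. Of the 20 called genes, 17 were among the 361; the others, Pgrmc1, Nckap1l and Dmgdh, passed 2-fold in number 1 alone.

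**Figure D3:**
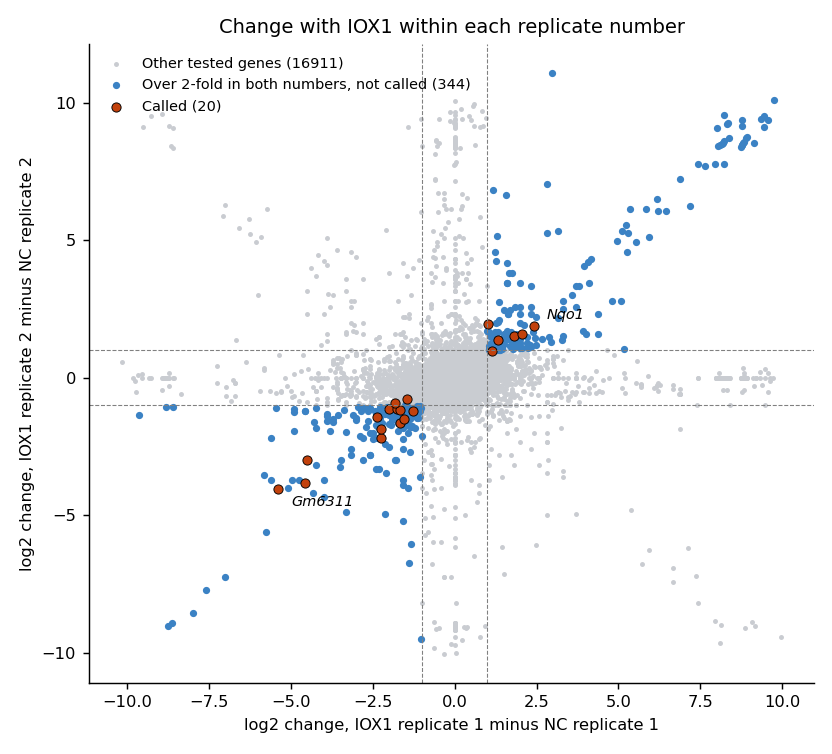
The log2 change in replicate number 2 against that in number 1 for the 17275 tested genes, with dashed lines at 2-fold; called genes in orange, genes over 2-fold in both numbers but not called in blue. Called genes lie mostly close to the diagonal at moderate changes, while the genes with changes over 7 in both numbers, at the upper right and lower left, are not called.

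Many of the 361 genes were low. In 96 of the 173 rises and 130 of the 188 falls the larger group mean was under 100. Among rises with an annotation 57.0% were protein coding and 10.3% pseudogenes, against 86.7% and 3.58% of all tested genes with one. Among falls the shares were 85.2% and 6.01%. The median GC content of the longest transcript was 44.9% for the rises, 50.7% for the falls and 48.7% for all tested genes. The median GC content thus lay below that of all tested genes for the rises and above it for the falls. The pseudogene share was above that of all tested genes in both directions. The part of these features in the changes was not tested.

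Further genes with all 22 values above 0 and a larger group mean of at least 100 showed large changes that did not pass the main test. They were chosen, by size of change, among the genes called when replicate number was a term in the fit. The p-values given here are from the main fit, which has no such term. Cd24a, a small surface glycoprotein, stood at 329 and 338 in NC against 1091 and 1078 with IOX1 (log2 change 1.70, limma adjusted p = 0.0725). Valproate, at 1349 and 966, and Bromosporine, at 942 and 997, gave similar Cd24a levels. Gm45105, Gm4631 and Olfr718-ps1 had log2 changes of 1.51, 1.48 and 1.43 (limma adjusted p = 0.238, 0.574 and 0.201). They share 79.3%, 51.1% and 10.4% of their 31-base words with other transcripts. Cdx1, the caudal homeobox gene of the posterior axis and gut, stood at 1773 and 1006 in NC against 118 and 409 with IOX1 (log2 change -2.60, limma adjusted p = 0.24). DZNep, at 37 and 116, and Bromosporine, at 133 and 202, gave Cdx1 levels that were as low or lower.

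Pramel6, a PRAME-family gene of naive embryonic stem cells, was at 97 and 110 against 6 and 28 (log2 change -2.87, limma adjusted p = 0.125). Adad2, a testis gene of the adenosine deaminase family, was at 143 and 97 against 17 and 35 (log2 change -2.22, limma adjusted p = 0.0783), below all 20 other libraries. Gm12463, a pseudogene that shares 92.9% of its 31-base words with other transcripts and most with the meiotic kinase gene Aurkc, was at 976 and 986 against 120 and 337 (log2 change -2.28, limma adjusted p = 0.265). Aurkc itself was at 979 and 877 against 178 and 489 (log2 change -1.65, limma adjusted p = 0.306). Smok4a, at 118 and 82 in NC and 20 and 17 with IOX1, and Myo1f, at 1065 and 1565 in NC and 89 and 888 with IOX1, completed the group (limma adjusted p = 0.186 and 0.595). Smok4a shares 68.9% of its 31-base words with other transcripts.

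The 20 gene lists were then read, each by its calls and its median beside those of all genes. At an unadjusted limma p under 0.05, which 12.4% of all tested genes reached, stood 17 of 33 NRF2 targets, 10 of 37 integrated stress response genes, 9 of 31 hypoxia genes, 7 of 22 germline genes and 6 of 24 matrix genes. The oxygenase lists had 5 of 31 JmjC proteins, 3 of 12 nucleic acid demethylases and 4 of 19 hydroxylases there, and the p53 and cholesterol lists 5 of 24 each. The chaperones had 4 of 25, the early lineage markers 3 of 27, the pluripotency, iron, metal and imprinted lists 2 each, the aryl hydrocarbon receptor and fibroblast lists 1 each, and the 2-cell and histone lists 0. In the NRF2 target list 33 of 34 genes were tested and 2, Nqo1 and Cbr3, were called, both up. The median change was 0.37 (0.48 in number 1 and 0.27 in number 2) against -0.02 over all genes. Without IOX1 replicate 1 it was 0.24. Higher values in both numbers were found for 22 of the 33, or 66.7%, against 31.5% of all tested genes, and lower values in both for 5, or 15.2%, against 35.7%.

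In the thioredoxin branch of the NRF2 list, Txnrd1, the reductase, was at 8862 and 9106 in NC against 14424 and 13845 with IOX1 (log2 change 0.65, limma adjusted p = 0.119), Txn1 at 6922 and 7642 against 15958 and 12912 (0.98, adjusted p = 0.22), and Srxn1, which repairs peroxiredoxins, at 1216 and 1320 against 1862 and 2727 (0.83, adjusted p = 0.308). For glutathione synthesis, Gclc, the catalytic subunit of the first enzyme, was at 1148 and 1391 against 1993 and 2101 (0.69, adjusted p = 0.089), and its partner Gclm at 2182 and 2869 against 3646 and 4244 (0.65, adjusted p = 0.399). Prdx1, a peroxiredoxin, and Gsr, which regenerates glutathione, had smaller log2 changes of 0.44 and 0.37. None of these passed the test.

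Other well-known targets had near-equal or lower values. Hmox1, the haem oxygenase that responds strongly to many electrophiles, stood at 1699 and 1685 in NC against 1644 and 1638 with IOX1 (log2 change -0.04, SE 0.17). Slc7a11, the cystine transporter, was at 106 and 159 against 137 and 109 (log2 change -0.09), and Gsta3, a glutathione transferase, at 310 and 311 against 187 and 232 (log2 change -0.57, limma adjusted p = 0.271). The transcript of NRF2 itself, Nfe2l2, was at 4089 and 3070 in NC against 4311 and 3675 with IOX1 (log2 change 0.17, limma adjusted p = 0.807). Keap1, named after its value was seen, was at 1817 and 2165 against 2084 and 2952 (log2 change 0.32, limma adjusted p = 0.567).

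In the hypoxia response list 31 of 33 genes were tested and none was called. Its median change was -0.43, with -0.61 in number 1 and -0.20 in number 2. Of the 31 members 22 were lower in both numbers, or 71.0% against 35.7% of all genes, and 5 were higher in both. The lowest were glycolytic: Pfkl, the liver-type phosphofructokinase, stood at 5866 and 4020 in NC against 1613 and 2386 with IOX1 (log2 change -1.31, SE 0.28, limma adjusted p = 0.0905), below all 20 other libraries. Ldha, lactate dehydrogenase, was at 18342 and 15612 against 6858 and 10799 (log2 change -0.98, limma adjusted p = 0.317), and Aldoa, aldolase, at 67675 and 49443 against 25663 and 33724 (log2 change -0.98, limma adjusted p = 0.279).

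No signalling or feedback member was called. Vegfa, the vascular growth factor, was at 6164 and 3822 in NC against 4339 and 3822 with IOX1 (log2 change -0.25, limma adjusted p = 0.739). Egln3, the HIF prolyl hydroxylase that HIF itself induces, was at 670 and 482 against 306 and 407 (log2 change -0.69, limma adjusted p = 0.345), and Bnip3, a mitophagy receptor, at 766 and 512 against 451 and 541 (log2 change -0.34, limma adjusted p = 0.76). Hilpda, a lipid droplet protein, was the highest, at 129 and 147 against 192 and 225 (log2 change 0.59, limma adjusted p = 0.156). Bnip3 shares 74.7% of its 31-base words with other transcripts. The core ACGTG of the hypoxia response element stood in the promoter windows of 19 of 27 listed genes, or 70.4%, against 25.0% of the NRF2 targets and 21.8% of all genes. The other core, GCGTG, stood in 74.1% of the hypoxia genes, 67.9% of the NRF2 targets and 35.2% of all genes. Both cores were searched on either strand.

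**Figure D4:**
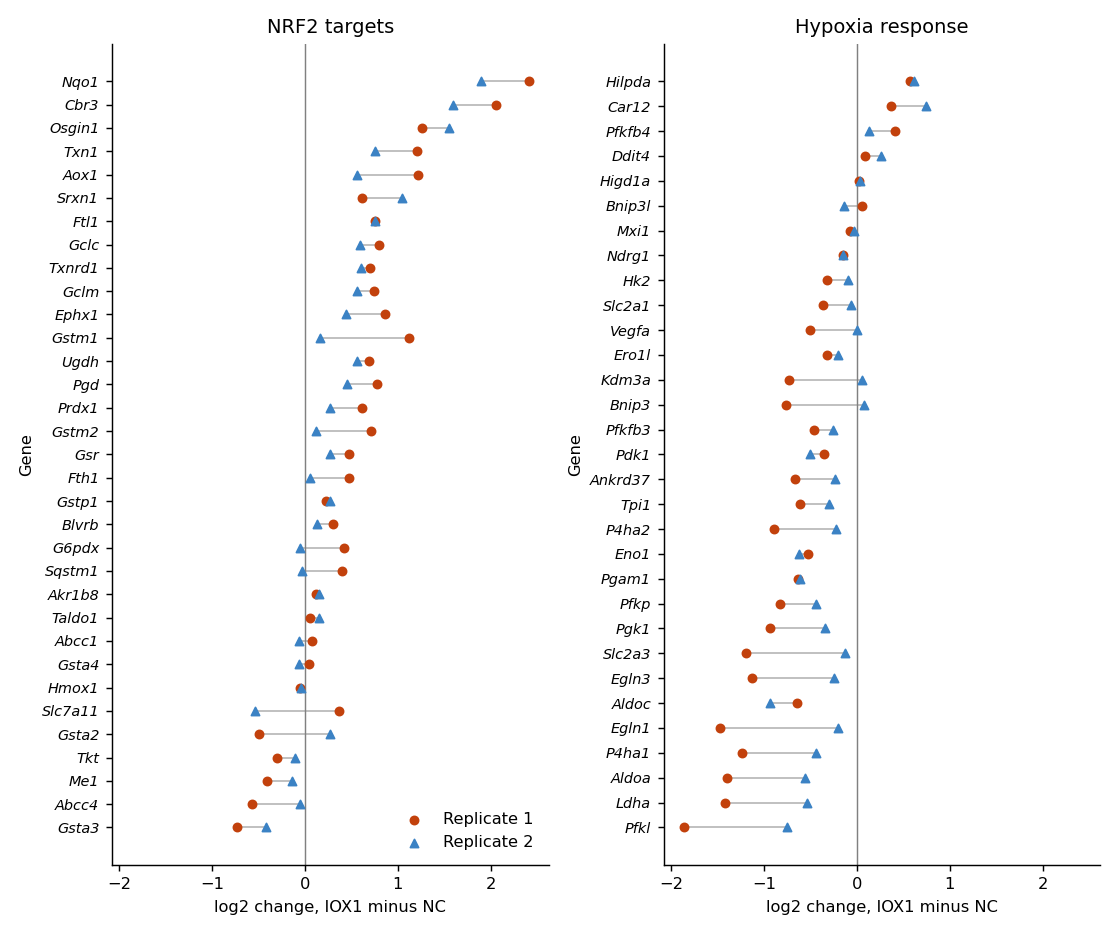
The log2 change of IOX1 minus NC for each tested member of the NRF2 target list (left) and the hypoxia response list (right), circles for replicate number 1 and triangles for number 2. In the left panel 22 of 33 members have both points right of 0, led by Nqo1 and Cbr3, and in the right panel 22 of 31 have both points left of 0, with Pfkl lowest.

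The next lists hold the transcripts of the 2-oxoglutarate oxygenases themselves. None of 31 JmjC proteins was called, with a median change of -0.09 and a range from -0.83 for Phf8 to 0.72 for Jmjd1c. Leaving out 1 library moved that median from 0.02 (without IOX1 replicate 1) to -0.28 (without IOX1 replicate 2). Kdm4c, an H3K9 demethylase, was at 6587 and 6955 in NC against 5462 and 5550 with IOX1 (log2 change -0.30, limma adjusted p = 0.293). Kdm2b, the CpG-island binding demethylase, was at 2622 and 2616 against 2120 and 2196 (log2 change -0.28, limma adjusted p = 0.223). Kdm6b, an H3K27 demethylase, was at 5477 and 4303 against 3865 and 3376 (log2 change -0.43, limma adjusted p = 0.299), and Kdm5b, an H3K4 demethylase, at 29466 in both NC libraries against 14988 and 26697 (log2 change -0.56, limma adjusted p = 0.546).

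None of 12 nucleic acid demethylases was called, with a median change of 0.05, which was between 0.07 and 0.18 in the 4 fits that leave out 1 library. Tet1 was at 12635 and 8890 in NC against 15816 and 12635 with IOX1 (log2 change 0.42, limma adjusted p = 0.728), and Tet2 at 2478 and 2596 against 1652 and 3406 (log2 change -0.10, limma adjusted p = 0.951). Fto, the RNA demethylase, was at 3263 and 3297 against 2336 and 2475 (log2 change -0.45, limma adjusted p = 0.154), and Alkbh1, which acts on DNA and transfer RNA, at 1273 and 1385 against 1896 and 1568 (log2 change 0.38, limma adjusted p = 0.193). Among 19 of 21 protein and small-molecule hydroxylases none was called and the median change was -0.17, or -0.08 without IOX1 replicate 1 and -0.28 without IOX1 replicate 2. P4ha1, the collagen prolyl hydroxylase subunit, was at 2523 and 1446 in NC against 1068 and 1065 with IOX1 (log2 change -0.84, limma adjusted p = 0.172), below all 20 other libraries.

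Matrix genes include the collagens, which need such hydroxylation. None of the 24 collagen and matrix genes was called, the median change was -0.33, and 16 were lower in both numbers, or 66.7% against 35.7% of all genes. Without IOX1 replicate 2 the median was -0.61. Loxl2, a lysyl oxidase, was at 103 and 61 in NC against 26 and 18 with IOX1 (log2 change -1.83, limma adjusted p = 0.074), and Lamc1, a laminin chain, at 53841 and 49312 against 29399 and 35221 (log2 change -0.68, limma adjusted p = 0.118). Loxl2 shares 47.1% of its 31-base words with other transcripts. Of the fibroblast markers, Pdgfrb was at 217 and 108 against 43 and 76 (log2 change -1.41, limma adjusted p = 0.313). Postn was at 474 and 559 in NC against 320 and 0 with IOX1, and it was at 0 in 12 of the 22 libraries. Acta2, at 0 and 29 against 18 and 24, and Tagln, at 0 and 19 against 6 and 10, had log2 changes of 1.99 and 0.97 (limma adjusted p = 0.667 and 0.781), and their values overlapped between groups. The fibroblast marker sums given above moved with these genes, and their part was not tested.

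Metal-handling genes were read because IOX1 is a metal chelator. None of 17 zinc and metal response genes was called, with a median change of 0.17. It was 0.07 without IOX1 replicate 1, 0.06 without NC replicate 2 and 0.27 without NC replicate 1. The metallothionein gene Mt2 was at 7099 and 9399 in NC against 20251 and 16371 with IOX1 (log2 change 1.16, limma adjusted p = 0.202), Mt1 at 8602 and 10288 against 13304 and 12098 (log2 change 0.43, limma adjusted p = 0.441), and Mt3 at 87 and 69 against 172 and 154 (log2 change 1.06, limma adjusted p = 0.327). In the 18 libraries of the other compounds the median was 12726 for Mt2 and 11490 for Mt1, above both NC values of each. For Mt3 it was 72, between the NC values. Mt2 shares 56.1% of its 31-base words with other transcripts. None of 25 iron-handling genes was called either, with a median change of -0.04.

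Of the iron genes, Tfrc, the transferrin receptor that rises when cell iron is low, was at 8923 and 14408 in NC against 12129 and 17988 with IOX1 (log2 change 0.38, limma adjusted p = 0.663). The ferritin genes Fth1, at 8544 and 9907 against 11842 and 10319, and Ftl1, at 897 and 818 against 1518 and 1379, had log2 changes of 0.26 and 0.76 (limma adjusted p = 0.383 and 0.154). Ftl1 shares 94.9% of its 31-base words with other transcripts and most with Ftl1-ps1, which stood at 92353 in all 4 libraries.

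Of 8 tested targets of the aryl hydrocarbon receptor only Nqo1 was called, and the median change was 0.03. Cyp1b1 was at 9 and 26 in NC against 7 and 0 with IOX1 (log2 change -2.54, limma adjusted p = 0.566). Tiparp, a direct target in many cells, was at 2730 and 2966 against 2532 and 2767 (log2 change -0.10, limma adjusted p = 0.667).

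The integrated stress response and p53 lists had medians of opposite sign and no calls. In the integrated stress response list 28 of 37 members were lower in both numbers, or 75.7% against 35.7% of all genes, with a median change of -0.28. That median was -0.44 and -0.12 without IOX1 replicate 1 and 2, and -0.15 and -0.45 without NC replicate 1 and 2. Gars, the glycyl-tRNA synthetase, was at 39193 and 35221 in NC against 24664 and 20208 with IOX1 (log2 change -0.73, limma adjusted p = 0.153), and Asns, asparagine synthetase, at 67756 and 54023 against 45095 and 41963 (log2 change -0.48, limma adjusted p = 0.158). Trib3 and Ddit3 had changes of -0.40 and -0.36 (limma adjusted p = 0.577 and 0.894), and the Ddit3 values overlapped between groups.

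In the p53 target list 19 of 24 members were higher in both numbers, or 79.2% against 31.5%, with a median change of 0.29. Trp53inp1, a stress-induced regulator of p53, was at 6297 and 4394 in NC against 13829 and 8622 with IOX1 (log2 change 1.05, limma adjusted p = 0.492). Ccng1, cyclin G, was at 9098 and 8718 against 17254 and 15612 (log2 change 0.88, limma adjusted p = 0.183), and the cell cycle inhibitor gene Cdkn1a at 6054 and 5364 against 7622 and 7103 (log2 change 0.37, limma adjusted p = 0.164). DZNep gave higher Ccng1 levels, at 25694 and 16436, and Trp53inp1 levels of 21953 and 7813. Of 25 chaperone genes and 24 cholesterol synthesis genes none was called, with medians of 0.14 and -0.12. Ahsa1, an activator of the chaperone HSP90, and Xbp1, a factor of the unfolded protein response, had changes of 0.36 and -0.67 (limma adjusted p = 0.232 and 0.319). Hmgcs1, an early enzyme of the cholesterol pathway, and Srebf2, its main activator, had changes of 0.53 and -0.48 (limma adjusted p = 0.103 and 0.17).

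No gene of the pluripotency and early lineage lists passed the test. Crxos, which is in neither list, was called, as given above. None of 23 pluripotency genes was called, with a median change of -0.03. Pou5f1 was at 28606 and 29454 in NC against 32054 and 28606 with IOX1 (log2 change 0.06, SE 0.09), and Nanog at 44793 and 59405 against 41831 and 53841 (log2 change -0.12, SE 0.37). Esrrb, Klf2 and Tfcp2l1, further factors of the naive state, had changes of -0.22, -0.69 and -0.29 (limma adjusted p = 0.46, 0.494 and 0.654). Dppa5a was at 41903 and 39262 against 76099 and 59503 (log2 change 0.73, limma adjusted p = 0.293), and Zfp42 at 16469 and 20763 against 23885 and 29523 (log2 change 0.52, limma adjusted p = 0.285). Dppa5a shares 57.2% of its 31-base words with other transcripts. Of 31 early lineage markers 27 were tested, none was called and the median change was 0.00. Sox1, a neural marker, was at 742 and 514 against 411 and 388 (log2 change -0.63, limma adjusted p = 0.132). Bmp4, a growth factor of the BMP family, was at 8 and 9 against 22 and 19 (log2 change 1.18, limma adjusted p = 0.315).

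Germline genes, many of which are held silent by DNA methylation in other cells, had a median change of -0.49, with -0.74 in number 1 and -0.11 in number 2. None of the 22 was called and 14 were lower in both numbers, or 63.6% against 35.7% of all genes. Sohlh2, a germ cell transcription factor, was at 3033 and 2487 in NC against 828 and 1273 with IOX1 (log2 change -1.42, limma adjusted p = 0.153), and Mael, of the transposon-silencing piRNA pathway, at 284 and 377 against 140 and 177 (log2 change -1.05, limma adjusted p = 0.289). Bromosporine gave lower levels of Sohlh2 (365 and 427) and of Mael (118 and 164). Dazl, the germ cell RNA-binding protein, was at 6257 and 3591 against 4769 and 4123 (log2 change -0.10, limma adjusted p = 0.955). Without IOX1 replicate 1 the list's median was -0.16, and without NC replicate 1 it was -0.32.

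Genes of the 2-cell stage were low throughout. Of 20 genes 12 were tested, none was called, and the median change of -0.90 split into -2.15 in number 1 and 0.00 in number 2. Leaving out IOX1 replicate 1 or 2 gave a median of -0.04 or -1.89, and leaving out NC replicate 1 or 2 gave -0.41 or -1.28. Usp17lb was at 14 and 16 in NC against 1 and 11 with IOX1 (limma adjusted p = 0.528). Zscan4b was at 17 in NC replicate 1 and at 0 in the other 3 libraries. Zscan4b shares 95.1% of its 31-base words with other transcripts. Of 28 imprinted genes none was called and the median change was 0.18, but it was between 0.03 and 0.10 in each of the 4 fits that leave out 1 library. Mkrn3 was at 149 and 139 against 263 and 238 (log2 change 0.79, limma adjusted p = 0.273) and H13 at 541 and 447 against 371 and 383 (log2 change -0.38, limma adjusted p = 0.314). Of 43 clustered histone genes, most of which make RNA without a poly(A) tail, none was called and the median change was -0.04. Hist1h3h was at 54 and 89 in NC against 21 and 25 with IOX1, and Hist1h3c at 128 and 179 against 52 and 108 (limma adjusted p = 0.402 and 0.459). They share 94.2% and 55.2% of their 31-base words with other transcripts.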

How the data were processed

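RNA of E14 mouse embryonic stem cells was sequenced as poly(A) libraries. Per the labels, the submitters' processing notes name bcl2fastq, Bowtie2 2.2.5, RSEM and mm10. The deposited values are scores in the sense that the authors' normalised read counts were quantile-normalised in full and rounded to whole numbers, so a count test was not used where raw counts would have allowed one. A second deposited table of group means was not used. The authors' text on the study does not describe the compounds.

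Groups came from the treatment label. Genes that reached 10 in 2 or more of the 22 libraries were kept. limma 3.58.1 (lmFit, eBayes with a trend, two-sided, R 4.3.3) was fitted on log2(value + 1) over all 22 libraries in 11 groups, without a term for replicate number, and p-values were adjusted by Benjamini-Hochberg over all 17275 genes. The script was tested on simulated data. Coordinates and shared 31-base words came from GENCODE M21 (mm10), where 97.2% of the tested symbols were found, and promoters from RefSeq (GRCm38.p6).

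Genes were named by 4 rules: those called with all 4 values above 0 and the same sign in both replicate numbers; of the genes called when replicate number is a term, with all 22 values above 0 and a larger group mean of at least 100, the 8 largest rises and falls; in each list the called members or the 2 with the smallest p; and 25 single genes. Some genes that these rules name, 1 of the called falls among them, are not reported here. Outside the rules, Gclc, Txn1, Srxn1, Prdx1, Gsr, Slc7a11, Gsta3, Nfe2l2, Ldha, Aldoa, Phf8, Jmjd1c, Esrrb, Klf2, Tfcp2l1, Acta2, Tagln and the genes given as sequence relatives of named ones were chosen after their values were seen. Members, lists and tests were chosen with earlier results of these data known, so no list or count above is independent support.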

Additional observations from a re-analysis of the deposited data

How the results depend on the processing

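The count of 20 called genes was 20 or 21 with a pseudocount of 10, without the filter on low values or with the libraries rescaled by median ratios. It was 34 without the DZNep, Valproate and Bromosporine libraries (19 of the 20 among them), 42 with the IOX1 and NC libraries fitted alone (none of the 20) and 72 against the mean of the other 10 groups (13 of the 20). Leaving out 1 IOX1 or NC library at a time gave 8 to 37. No gene of the 20 changed direction in any of these fits. Most of the fits reuse the same IOX1 and NC libraries, whose values did not overlap for these genes, so the direction could hardly change. The fit against the mean of the other 10 groups had a different reference. The 361 genes over 2-fold in both numbers became 187 with a pseudocount of 10, 378 without the filter and 382 after rescaling. Over the same 4 fits that leave out 1 library, the median change ran from 0.24 to 0.40 for the NRF2 targets, from -0.54 to -0.31 for the hypoxia response, from 0.23 to 0.42 for the p53 targets, from -0.45 to -0.12 for the integrated stress response and from -0.59 to -0.16 for the germline genes. The lowest NRF2 value and the highest germline value came without IOX1 replicate 1. In these fits the medians of the JmjC, aryl hydrocarbon receptor, cholesterol, histone, early lineage, fibroblast, chaperone and pluripotency lists took either sign.

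Replicate numbers were checked for pairing. Deviations from the group means of same-numbered IOX1 and NC libraries correlated at 0.159. Over all 55 pairs of groups the correlations ran from 0.0535 to 0.298, so all were positive, and 51 pairs were over 0.1. The labels do not say what a replicate number marks, and the main fit holds no term for it. As a hint from the data, 20 of 22 libraries lay nearest to a library of the same number in another group. With replicate number as a block 217 genes were called (78 up and 139 down, all 20 included), 382 when the DZNep, Valproate and Bromosporine libraries were also left out, 193 with a pseudocount of 10, 213 after rescaling, and 0 with the IOX1 and NC libraries alone, where 1 residual degree of freedom is left and 2810 genes had an unadjusted limma p under 0.05.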

Other observations

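Of the 361 genes over 2-fold in both numbers, 49 lay between a group mean under 30 and one of at least 300, 43 of them higher with IOX1 and 6 lower, and none was called (limma adjusted p from 0.0725 to 0.49). They were picked here for this pattern, after their values were seen, and get no test. Olfr1116, an olfactory receptor gene, was listed at 0 in each NC library and reached 652 and 675 with IOX1, and Zfhx4 was at 0 and 0 against 761 and 660. Both libraries were at or above 30 in 8 of the 11 groups for Olfr1116 and under 30 in 2, NC and CPTH2, so its NC value was the less common one. For Zfhx4 these counts were 5 and 3. In the other direction Pcdh17 was at 395 and 477 in NC and at 0 with IOX1, with 3 groups at or above 30 and 3 under it. The same genes also differed within groups: over the 49 genes and 11 groups, 184 of 539 gene-group pairs (34.1%) had 1 library under 30 and the other at or above it, and every one of the 49 genes had at least 1 such group.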
